A study of Mus musculus with 4 samples.

Results

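Annotated loci at which no read was counted in any of 4 mouse hearts, called silent loci below, are described here by their structure and by how they lie along the chromosomes. A silent locus is 1 with at least 1 UCSC transcript model and a value of 0 in each of the libraries 3RL, 7LR, 8R and 12RL. There were 7330 of them, 28.1% of the 26078 loci with a UCSC model and part of a table of 35299 loci. They were chosen by the normalised read counts of these same libraries, so their zeros are a description and are not tested. They were set beside 14954 expressed loci, those with a UCSC model whose normalised read counts averaged at least 10. Loci are given by position on the mm9 build, because the files pair no locus with a gene name.

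The hearts came from C57BL/6J mice aged 12 weeks, all of 1 group, Sham, sampled 2 weeks after a sham operation at the place that would border an infarct. The description of replicate 4 names the edge of an infarct and leaves out the word sham, while its title and treatment say sham, and no label ties a library name to a replicate. Libraries of poly(A)-selected long RNA held 108345923 to 160670654 recovered reads. Values of single libraries are given below in the order 3RL, 7LR, 8R, 12RL. With 1 group no conditions are compared. In bulk tissue fewer cells of a type and less RNA per cell cannot be told apart. The tissue was not checked: the loci carry no symbols to which a marker list could be applied.

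A mammalian genome carries large families of genes whose RNA is made in a limited set of cell types. Olfactory and vomeronasal receptors, the odour and pheromone detectors of nasal sensory neurons, keratins and keratin-associated proteins of skin and hair, and defensins of epithelia are textbook cases. Such families grew by tandem duplication, so their members sit side by side and resemble each other. The coding sequence of an olfactory receptor lies in a single exon. Annotation sets also hold very short RNAs, among them piwi-interacting RNAs, which guard the germ line against transposons and are cut in great numbers from long precursors read from 1 strand or from both. These families are background: no silent locus was identified as a member of any of them.

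The zeros were shared between hearts to a large extent. Of the loci with a UCSC model, 8584, 8446, 8636 and 8820 were at 0 in the respective libraries, which is 32.4% to 33.8% of them. The shallowest library, 12RL, had the most zeros, and the deepest, 8R, had the next most. A further 1008 loci were at 0 in 3 libraries, 723 in 2 and 696 in 1, against 16321 above 0 in all 4. Just outside the rule lay 759 loci with a single read over the 4 libraries together, 479 with 2 reads and 312 with 3. Loci above 0 in 1 library alone numbered 315 in 7LR, 247 in 3RL, 226 in 8R and 220 in 12RL, and they held at most 5 reads. A count of 0 allows up to 3 reads, or 3.58, 3.42, 3.41 and 4.73 normalised counts. This limit covers counting error only, so silent means below it in each heart and not that no RNA was made.

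Zeros without exception were found in 2 kinds of place. All 200 loci on the 11 chromosome pieces named random, which are sequence not placed on mm9, were at 0, with 74 of them on chrY_random and 63 on chrUn_random. Not a single locus on these pieces was above 0 in any library. Likewise, 136 loci with a UCSC model had every exon base inside exons of other loci, and all 136 were silent. Counting loci without a UCSC model too, 347 were covered in this way, and 0 of them were above 0 in any library. The covering loci were often abundant: at 101 of the 136 the highest of them had a mean of 10 or more. Together 325 silent loci, 4.43%, were on such a piece or wholly covered. Whether reads from these places reached the count table was not tested, and of the remaining 7005 silent loci 63.8% had a single exon, against 63.1% of all.

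Coverage short of complete did not go with zeros in the same way. Among loci with a UCSC model of 200 bases or more, 22.3% of those with no exon overlap were silent, against 3.20% of those covered over up to 50% of their exon bases and 3.88% of those covered over 50% to 75%. The share was 14.0% above 75% and, at complete cover, 69 of 69. Over all lengths, 345 silent loci (4.71%) shared exon bases with another locus, against 30.7% of the expressed loci. Each of these overlaps at a silent locus was with a locus on the opposite strand. At 200 bases or more the shares were 6.26% and 30.7%. Exons of models assembled from reads count in all these overlaps. Such models were at 0.327% of silent and 50.9% of expressed loci, and their part in the contrast was not tested.

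The silent loci fell into groups by spliced length, the summed exon length of the longest UCSC model of a locus. Models under 50 bases made up 2414 of the 7330 loci (32.9%), models from 50 to under 200 bases 777 (10.6%) and models of 200 bases or more 4139 (56.5%). Of the expressed loci, 6 were under 50 bases, 9 were from 50 to under 200 bases and 14939 were longer. The median was 566 bases in silent and 2804 bases in expressed loci, but the silent median falls between separate peaks and describes few loci.

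**Figure D1:**
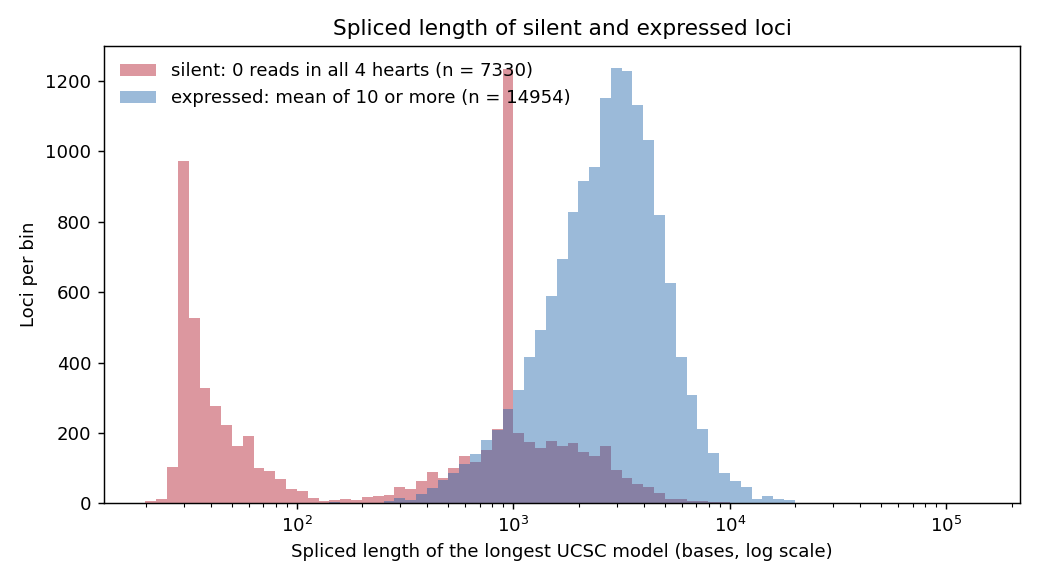
Number of loci per bin of spliced length, on a log scale of bases, for the 7330 silent loci and the 14954 expressed loci. Silent loci form a narrow peak near 30 bases and another near 939 bases, while expressed loci form 1 broad peak around their median of 2804 bases.

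The most common length of a silent locus was 30 bases, found at 426 loci, followed by 31 bases at 314 and 29 bases at 233. Lengths of 28 to 33 bases were found at 1348 silent loci, of 1400 loci with a UCSC model of that length, and at 1 expressed locus. All but 1 of the 2414 shortest silent loci had a single exon, and none had an assembled model beside the UCSC model. A read of these libraries was 100 bases long, longer than any of these models. Short RNA is commonly lost when libraries of long RNA are made, and the part of that loss in these zeros was not tested.

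Models under 50 bases reached a mean of 10 or more at 6 loci. The highest, at chr1 23289364 to 23302645, had 855, 1782, 1675 and 1276 normalised counts. Its UCSC model is 23 bases long, but an assembled model extends the locus, so these reads need not come from the short model. At chr13 63401837 to 63401859, a 23-base locus inside the span of another locus with no assembled model, the values were 33.4, 36.4, 20.5 and 33.1. All 4 hearts were above 0 at both loci.

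The other peak was made of single-exon loci of nearly equal length. The commonest lengths above 200 bases were 939 bases at 142 silent loci, 936 bases at 96, 945 bases at 96 and 933 bases at 81, where expressed loci numbered 4, 3, 5 and 3. Single-exon loci of 900 to 960 bases numbered 944 among silent and 14 among expressed loci. In 928 of the 944 (98.3%) the length was a multiple of 3, as in a coding sequence listed without untranslated ends. Of the 14 expressed loci 8 were multiples of 3. Of the 1022 loci of this kind with a UCSC model, 92.4% were silent, against 29.9% of multi-exon loci in the same range of length.

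The share of silent loci fell with length. It was 94.2% to 96.0% in each step from 20 to 49 bases and 94.9% from 50 to 99 bases. From 100 to under 200 bases 93 of 124 loci were silent, and from 500 to under 900 bases 36.7%. It then rose to 77.4% from 900 to 960 bases, and dropped to 20.5% above 960 and under 2000 bases, 7.82% from 2000 to under 4000, 2.84% from 4000 to under 8000 and 2.09% at 8000 bases or more. A longer locus collects more reads at the same level, and the part of this in the order was not tested. Single-exon loci were more often silent than multi-exon loci above 960 and under 2000 bases, 50.4% against 17.6%, and from 2000 to under 4000 bases, 11.2% against 7.69%.

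**Figure D2:**
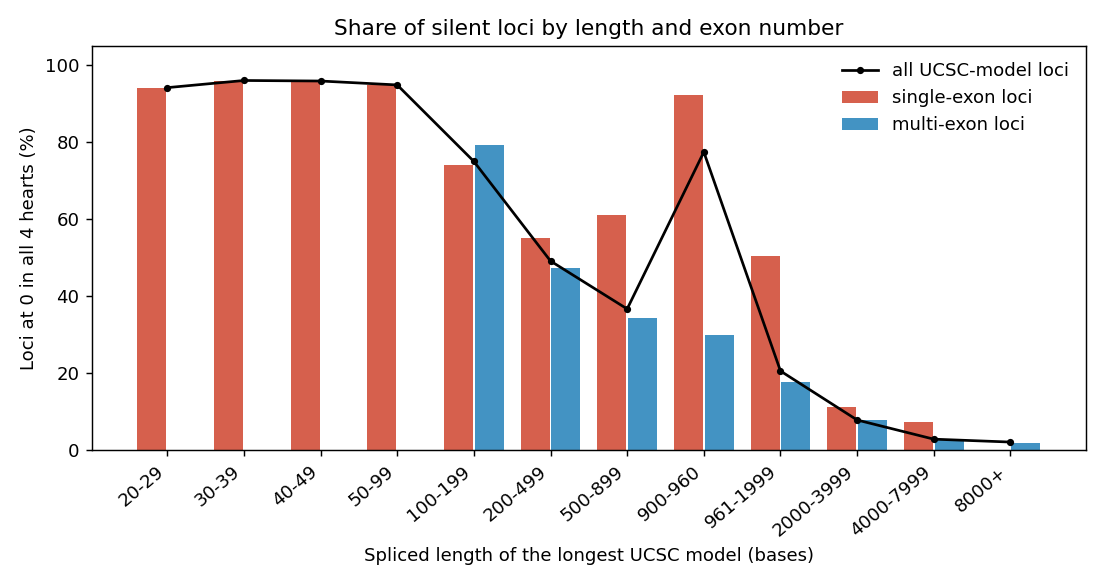
Percentage of loci with a UCSC model that were at 0 in all 4 hearts, by spliced length in bases; the line gives all loci and the bars single-exon and multi-exon loci, shown where a step holds at least 20 of them. The line falls from 94.2% at 20 to 29 bases to 2.09% at 8000 bases or more, with a rise to 77.4% at 900 to 960 bases that the bar of single-exon loci (92.4%) carries.

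Among the 4139 silent loci of 200 bases or more, 1459 (35.3%) had a single exon, against 501 of 14939 expressed loci (3.35%). With the range of 900 to 960 bases left out, the silent share was 16.6%. The 2680 multi-exon silent loci were simpler than expressed ones, with a median of 4 exons against 9 and a median spliced length of 1261 bases against 2828. At matched length, with single-exon loci included, exon number was also lower at silent loci. From 2000 to under 4000 bases silent loci had a median of 5 exons and expressed loci 9, with median lengths of 2574 and 2901 bases. From 1000 to under 2000 bases the medians were 4 and 6 exons. Annotation was also thinner at silent loci: 87.2% of those of 200 bases or more had 1 UCSC model, against 39.5% of expressed loci. The gap was smaller at matched length. It was 82.8% against 56.3% from 1000 to under 2000 bases, and 71.6% against 35.7% from 2000 to under 4000.

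Silent loci did include large and finely divided genes. The longest spliced model, 12928 bases in 67 exons, also had the most exons and lay at chr1 20047860 to 20608138 on the minus strand. The next by exon number were at chr4 113150496 to 113672108 with 59 exons, chr7 148974916 to 149005040 with 50, chr4 112477221 to 112959578 with 49 and chr3 72692482 to 72770788 with 47. Loci named in this paragraph by length, exon number or span were chosen only among silent loci without exon overlap. Silent loci with exon overlap are thus not ranked here. The spliced lengths of the 5 with the most exons were 12928, 4497, 8506, 3824 and 5887 bases. Of loci with a UCSC model, 78.0% were expressed from 2000 to under 4000 bases, 89.8% from 4000 to under 8000 and 91.6% at 8000 or more. By genomic span the largest were at chr14 115491474 to 116924400, chrX 84014457 to 85361027, chrX 134106088 to 135381494, chr4 35654653 to 36898777 and chr4 60148805 to 61335117. That last locus had 30 UCSC models, the most of any silent locus without exon overlap, none longer than 926 bases. The next longest spliced models, after the locus on chromosome 1, were 11990 bases in 3 exons at chr4 25536480 to 25727150, 9598 bases at chr5 10865029 to 11421234, 9312 bases at chrX 54125724 to 54233533 and 8979 bases at chrX 140290385 to 140367762.

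Many multi-exon silent loci shared their internal exon lengths with another locus. Taking models of 4 or more exons off the random pieces, 461 of 1516 silent loci (30.4%) shared the exact ordered lengths of their internal exons with another locus, against 884 of 12422 expressed loci (7.12%). Among those without exon overlap the shares were 30.9% and 7.48%. The shares were not matched for exon number, and a model with fewer internal exons needs fewer lengths to agree. One chain of 7 internal exons was shared by 22 loci on chromosomes 7 and 19, of which 18 were silent. One chain of 4 internal exons was shared by 14 loci on chromosome 17, all silent. The most shared chain of all, of 2 internal exons, was different: of its 51 loci 4 were silent. Some of the large silent loci named above also shared a chain with another locus. They were those starting at chr14 115491474, chr4 60148805 and chr5 10865029. Sequences were not compared, so equal exon lengths do not show that loci are copies of each other. Reads that fit several near-identical copies may have been left uncounted or split. The sources used here do not say which, so the zeros of loci with a shared chain are uncertain.

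Models assembled from reads were rare at silent loci. They were found at 24 silent loci (0.327%), against 7613 expressed loci (50.9%). Both groups were chosen by read counts and these models are built from reads, so the contrast is no independent result. Of the 24, 12 were wholly covered by exons of other loci. Of the 5 with the most assembled models, the first was at chr3 98303005 to 98367888 with 4 of them beside 5 UCSC models of up to 8 exons, and it shares its exon chain with another locus. The next was at chr13 33652617 to 33661186 with 2. The rest of the 24 had 1 each, so the next 3 named are taken from a tie: single-exon loci at chr1 169260508 to 169260917 and chr10 80828705 to 80829720, both wholly covered, and a locus of 39 exons at chr11 67051227 to 67073948 that overlapped none. Which libraries the assembly used was not stated in any label or file header used here.

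Silent loci were grouped along the autosomes. On chromosomes 1 to 19 there were 24956 loci with a UCSC model, of which 27.6% (6885) were silent and 57.9% (14460) expressed. The nearest locus was itself silent for 4959 silent loci (72.0%), and itself expressed for 11798 expressed loci (81.6%). Both shares exceed the group's share of all loci, more so for silent loci. With loci under 200 bases left out, 17.3% of 21642 loci were silent and 66.7% were expressed, and the nearest locus was of the same group for 57.6% of silent and 82.0% of expressed loci.

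The grouping reached far beyond the next locus. Among loci of 200 bases or more, 57.2% of the first neighbours on either side of a silent locus were silent, 43.3% of the fifth, 36.3% of the tenth and 30.6% of the twentieth, which is still above the share of 17.3% among all. For expressed loci the values were 78.1%, 72.7%, 71.1% and 69.9%, nearer to their share of 66.7%. Neighbours of a locus are not independent of each other, so no test is given.

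**Figure D3:**
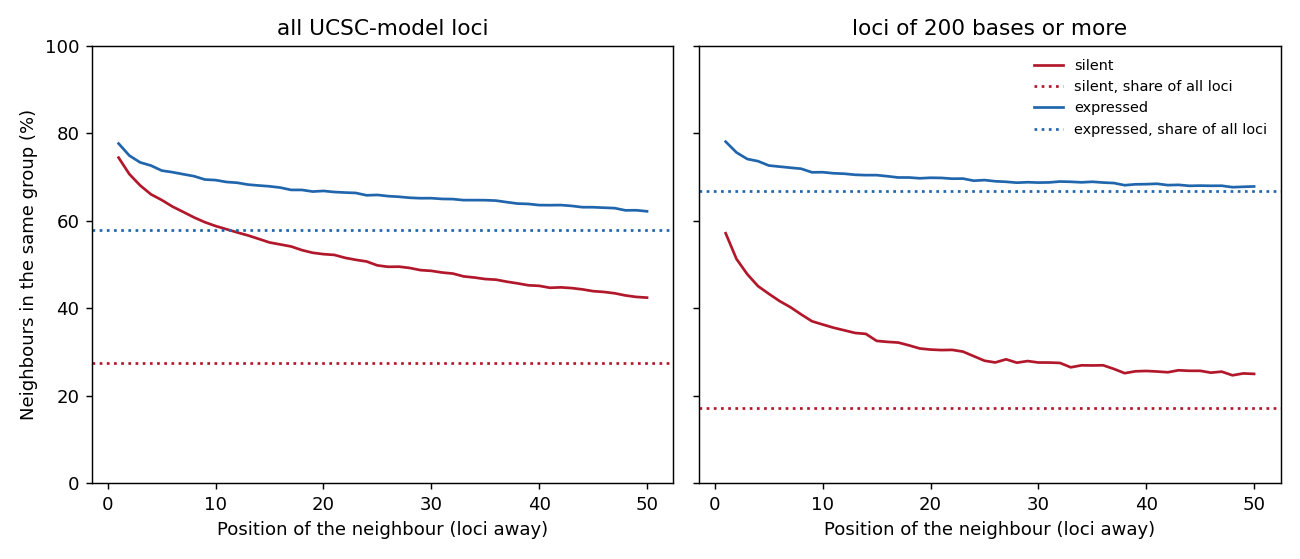
Percentage of neighbours in the same group as the locus itself, by how many loci away the neighbour lies, for silent and expressed autosomal loci of all lengths (left) and of 200 bases or more (right); dotted lines give each group's share of all ordered loci. Silent curves start far above their dotted line (57.2% against 17.3% on the right) and remain above it at 50 loci, while expressed curves start nearer to theirs (78.1% against 66.7%).

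Unbroken runs were counted as well. A run is a stretch of consecutive loci with a UCSC model, ordered by start, that are all silent. Runs of 5 or more held 4675 silent loci (67.9%) and runs of 20 or more held 3262 (47.4%), against 10156 (70.2%) and 1350 (9.34%) of expressed loci. Expressed loci were thus seldom in runs of 20 or more, although they are the larger group. Their share in runs of 5 or more was 85.3% with a minimum mean of 1 and 55.2% with 50, so it has no fixed order against the silent share. With loci under 200 bases left out, runs of 20 or more held 19.9% of silent and 10.3% of expressed loci, and runs of 5 or more held 45.5% and 70.9%. The longest silent run had 240 loci and the longest expressed run 51. At the other end, 1104 silent loci (16.0%) stood alone between loci that were not silent, as did 1084 of 3744 when only loci of 200 bases or more were ordered. By 1 Mb windows with 5 or more loci, 50.3% of silent loci lay where at least 80% of the loci were silent, and 44.6% of expressed loci where at least 80% were expressed. Among loci of 200 bases or more the order turned, with 23.9% of silent and 46.6% of expressed loci.

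**Figure D4:**
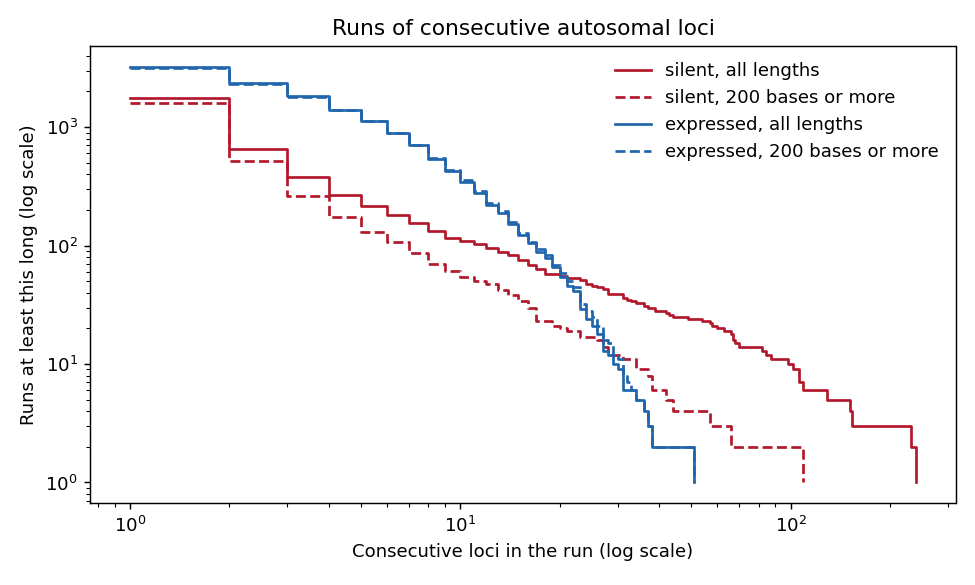
Number of runs of consecutive autosomal loci of the same group that are at least as long as the value on the x axis, with both axes on a log scale, for silent and expressed loci and for all lengths or 200 bases or more. The silent curves reach 240 loci (all lengths) and 109 loci (200 bases or more), and the expressed curves end at 51.

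The 55 silent runs of 20 or more loci were of 2 kinds, and none was a mixture. In 35 runs on 15 chromosomes at least 80% of loci were under 200 bases. These runs held 2515 loci over a median of 35.1 kb. In 20 runs on 9 chromosomes at least 80% were of 200 bases or more. They held 747 loci over a median of 1022 kb. The kinds differed in strand. Of the 35 runs of short loci, 15 were on a single strand throughout and 19 changed strand exactly once. Of these 19, the minus strand came first and the plus strand second in 14, so that the models pointed away from each other, and 5 had the reverse order. The remaining run changed strand 4 times. Runs of longer loci changed strand 11 times at the median and up to 25 times, and 0 of the 20 changed at most once.

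The 10 longest runs of any kind held 1422 loci, 19.4% of all 7330 silent loci, and 9 of them were made of short loci. The longest, at chr17 27431702 to 27499252, packed 240 single-exon loci with a median of 34.5 bases into 67.6 kb, 120 on each strand with 1 change of strand. The second, at chr2 150912522 to 151258138, had 232 loci over 346 kb and was the run with 4 changes. The third, at chr6 127726101 to 127781564, had 153 loci, 103 of them on the plus strand. The median gap between loci in these 3 runs was 116, 79 and 100 bases.

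The remaining runs of short loci were alike in length of model but not in density, with 102 loci per 100 kb on chromosome 18 and 325 on chromosome 12. They lay at chr18 67084421 to 67232964 (151 loci), chr12 99626171 to 99665881 (129), chr9 54058638 to 54117106 (106), chr5 113750878 to 113785945 (102), chr7 77030849 to 77080913 (102) and chr14 24901471 to 24936634 (98). The median model length in these runs was 35 to 39 bases, and each had 1 change of strand except the run on chromosome 14, which was wholly on the plus strand. No locus without a UCSC model lay within any of these 9 runs. Within the 35 runs of short loci there were 5 such loci in all, each above 0 in at least 1 library, and within the 20 runs of longer loci there were 8, of which 7 were above 0.

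Several of these runs had an expressed locus on one side and a locus with at most a few reads on the other. The locus before the longest run, at chr17 27371390 to 27385011, had 905, 945, 673 and 757 normalised counts, and the locus after this run, at 27500603 to 27500633, had 1.19, 0, 0 and 0. The locus after the run on chromosome 14, at 24949772 to 25065142, had 1931, 1880, 1718 and 1993, and the locus before that run, at 24117916 to 24833713, had 15.5, 15.9, 18.2 and 25.2, so both of its flanks were expressed. After the run on chromosome 18 the locus at 67247990 to 67386445 had 503, 380, 433 and 435, and the locus before this run, at 67017362 to 67020126, had 0, 1.14, 0 and 0. The expressed flanks had reads in all 4 hearts, while the runs beside them were at 0 by definition. On chromosome 12 the locus before the run, at 99506867 to 99516041, had 187, 136, 200 and 140. The locus after that run, at 99672204 to 99816150, had 0, 1.14, 2.27 and 4.73, which is at most 3 reads in each library.

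The sixth run was the longest made of longer loci. At chr2 87593213 to 90241749 it had 109 loci over 2649 kb, 108 of them with a single exon and 100 of 900 to 960 bases, with an interquartile range of 927 to 945 bases. Loci stood in both directions, 76 on the minus and 33 on the plus strand, with a median gap of 18199 bases. The locus after it, at chr2 90269955 to 90420754 with 26 exons, had 1918, 1938, 1510 and 1831 normalised counts. The locus before it, at chr2 87586355 to 87587290, is a single exon of 936 bases with values of 1.19, 3.42, 0 and 0. On that side the run was ended by a locus of the same structure with 1 read in one library and 3 in another.

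Loci of 200 bases or more, ordered without the shorter ones, gave further runs of this kind. The 10 longest held 495 loci, of which 462 had a single exon and 382 were of 900 to 960 bases. After the run above came chr2 85960381 to 87351022 with 66 loci, chr10 128408253 to 129717282 with 57, chr9 37467487 to 38505961 with 44 and chr7 114958100 to 116037919 with 42. In each of these 4 runs the median length was between 936 and 945 bases. The run on chromosome 9 was bounded sharply: the locus before it, at chr9 37456767 to 37464897, had 4135, 3735, 4232 and 3513 normalised counts, and the locus after it, at chr9 38525883 to 38602977, had 6842, 7509, 6463 and 6941. Between these 2 transcribed loci all 44 loci of 200 bases or more had no read in any heart.

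The other 5 were at chr19 12993853 to 13994462 (38 loci), chr11 99375938 to 99997172 (37), chr2 111033411 to 111997072 (37), chr13 22179747 to 23342192 (34) and chr11 73188253 to 74179111 (31). The first run on chromosome 11 stood apart from the rest of the 10. Only 3 of its 37 loci were of 900 to 960 bases, 23 had a single exon, the median length was 1031 bases with an interquartile range of 877 to 1449, and the median gap of 7595 bases was the shortest of the 10. The run at chr11 73188253 ended at one of the more abundant loci named here, at chr11 74196985 to 74424417, with 19200, 19871, 18651 and 19475 normalised counts.

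Neighbouring silent loci resembled each other. In 2138 pairs of adjacent silent loci of 200 bases or more, the longer spliced model exceeded the shorter by a median factor of 1.05, and in 1158 pairs (54.2%) the lengths differed by at most 0.1 on the log2 scale. In 11275 pairs of adjacent expressed loci the factor was 1.75, and 754 pairs (6.69%) were that close. Any 2 lengths from 900 to 960 bases are that close, and 1040 silent and 161 expressed loci had such lengths. The pairs were not counted without these loci, so a likeness outside this range of length is not shown. The members of a silent pair were on the same strand in 64.9% of cases, against 41.8% of expressed pairs. Silent pairs were also farther apart, with a median gap of 22480 bases against 5682. Among silent loci under 50 bases, 96.4% of 2293 adjacent pairs were on the same strand and the median gap was 208 bases.

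The longest runs of expressed loci looked different. At chr2 28915783 to 31666038, 51 consecutive loci were expressed, with a median of 10 exons and 2941 bases and 3 single-exon loci. The next were at chr5 32761633 to 35624412 (38 loci), chr7 134276978 to 135069276 (37), chr3 89119361 to 90328503 (36) and chr10 79353657 to 79980005 (34). Of the 51 loci in the first of these runs 23 shared exon bases with another locus, against 0 of 240 and 0 of 109 in the longest silent runs of each kind. Exons of assembled models count in this overlap too.

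Silent loci were spread unevenly over the autosomes. Their share was highest on chromosomes 14 (37.5%), 2 (36.6%), 7 (35.3%) and 17 (34.6%), and lowest on chromosomes 1 (14.3%) and 11 (15.9%). Among loci of 200 bases or more the highest shares were 480 of 1920 on chromosome 7, 24.3% on chromosome 2 and 23.3% on chromosome 14, and the lowest 11.1% on chromosome 12. Chromosome 17 was high through short loci: 256 of its 486 silent loci were under 50 bases, and its share among longer loci was 15.9%. Chromosomes 16 and 19 had almost none of these, with 3 and 2. Off the autosomes, 238 of 901 loci on chromosome X (26.4%), 7 of 13 on chromosome Y and 0 of 8 on the mitochondrial chromosome were silent.

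Single-exon silent loci of 900 to 960 bases were counted on each autosome and set beside olfactory receptor genes (symbol Olfr) in the RefSeq table of a later build, GRCm38.p6, without matching 1 locus to 1 gene. Chromosome 2 had 241 such loci and 287 Olfr genes, chromosome 7 had 182 and 239, and chromosome 9 had 113 and 130. Chromosome 10 had 54 and 68, chromosome 11 had 61 and 83, chromosome 16 had 35 and 36, and chromosome 19 had 52 and 63. Chromosomes with few of the one had few of the other: chromosome 12 had 0 and 0, chromosome 5 had 1 and 0, and chromosome 3 had 2 and 2. Chromosomes 6 and 13 went against this, with 66 loci and 28 genes, and 31 loci and 13 genes. RefSeq lists 51 Vmn1r genes, a family of vomeronasal receptors, on chromosome 6 and 36 on chromosome 13. It lists the most, 126, on chromosome 7, where the loci were fewer than the Olfr genes. Of Tas2r (bitter taste receptor) genes it lists 33 on chromosome 6 and 0 on chromosome 13. To which family these loci belong was not tested.

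**Figure D5:**
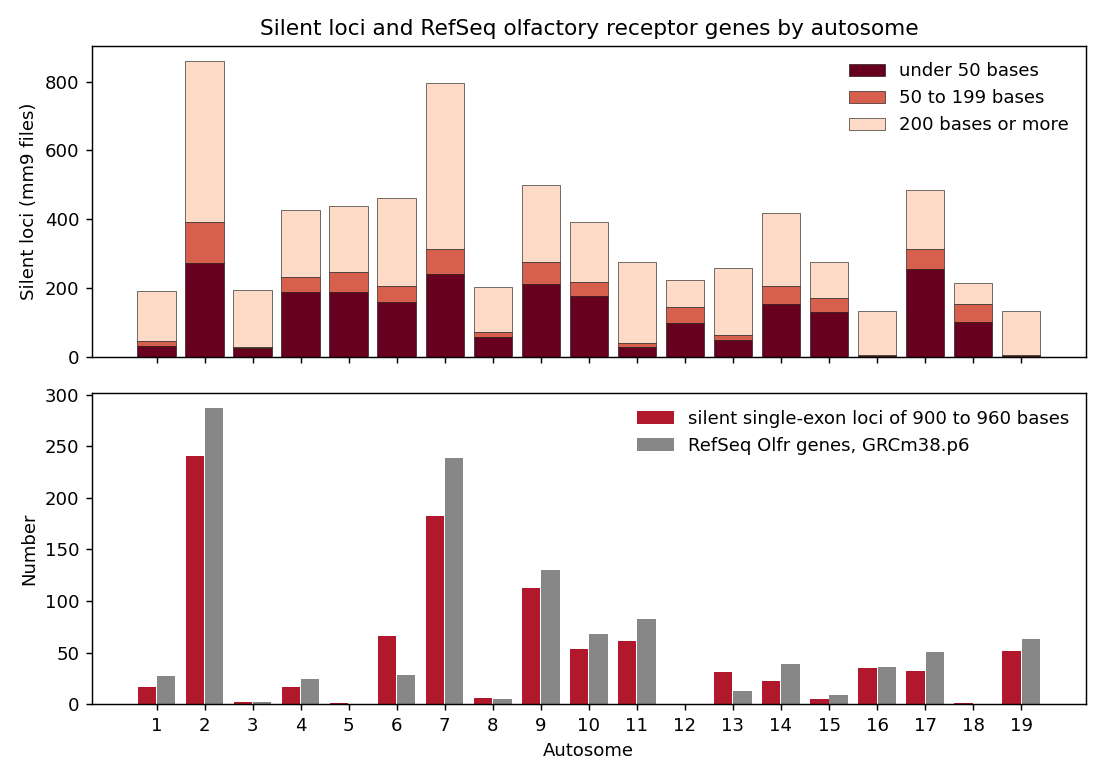
Top, number of silent loci on each autosome, stacked by spliced length. Bottom, silent single-exon loci of 900 to 960 bases on each autosome beside the number of RefSeq Olfr genes of GRCm38.p6; chromosome 2 leads both counts, with 241 loci and 287 genes, and chromosome 12 has 0 of each.

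In the same table the longest unbroken row of Olfr genes, counting protein-coding genes only, had 123 genes and was on chromosome 2. Rows of 50, 42, 41 and 40 were on chromosomes 10, 7, 19 and 9. Other families of the list had rows on the autosomes where they lie, such as 29 Vmn1r genes on chromosome 13, 25 Defa (alpha-defensin) genes on chromosome 8, 24 Mup (major urinary protein) genes on chromosome 4, 15 Krt (keratin) genes on each of chromosomes 11 and 15, 19 Klr (natural killer cell lectin-like receptor) genes and 18 Tas2r (bitter taste receptor) genes on chromosome 6, 23 Serpin genes on chromosome 12 and 14 Cyp genes on chromosome 19. Chromosomes 2, 7, 9, 10, 11, 13 and 19 are those that hold the 10 longest runs of silent loci of 200 bases or more. The builds differ and positions were not compared, so a shared chromosome does not identify a run.

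Some silent loci lay alone among strongly transcribed loci. Of 1798 silent loci of 200 bases or more that overlapped no other locus and had a locus within 50 kb on each side, 1073 had silent neighbours on both sides and 141 (7.84%) had expressed neighbours on both. The case with the highest neighbours was at chr12 82024423 to 82025434, a model of 2 exons and 373 bases at 0 in every heart. The locus before it, at 81891546 to 81981820, had 17819, 19350, 18077 and 21096 normalised counts. The locus after it began 5798 bases away and had 20353, 19958, 20053 and 16675.

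The next 4 cases had the same pattern of a small locus at 0 between high neighbours. They were at chr17 56381139 to 56382224 with 2 exons, chr17 56650671 to 56651906 and chr11 35610882 to 35612386 with 1 each, and chr10 70773493 to 70776725 with 4. The lower of the 2 neighbours had a mean of 10051, 6961, 4950 and 3688 normalised counts. Their spliced lengths ran from 745 to 1527 bases, and the locus with 4 exons shared its exon chain with no other locus. The other 3 have too few exons for that comparison. At chr11 35610882 the gaps to the neighbours were 6094 and 9498 bases.

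Loci without a UCSC model were seldom at 0: 377 of 9221 (4.09%) were at 0 in all 4 libraries. Such loci hold only models assembled from reads, so a low share is built in and is no contrast with annotated loci. The wholly covered loci without a UCSC model are among the 377.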

How the data were processed

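Poly(A)-selected RNA of 4 Sham hearts was read from both ends, 100 bases each, as the labels' protocols say. The deposited signal is a normalised read count, obtained by the authors by scaling each library by its size factor. They also deposited exon positions of transcript models on mm9 (1-based). Per the submitters' processing notes, the tools were DESeq, HTSeq 0.5.4p2, Cufflinks 2.0.2 and TopHat2 2.0.5. For counting mode, strand and multiply placed reads, settings were not stated in any source used here. Whole reads were recovered, since 100% of values were whole multiples of 1 step within 0.001. No count test was run, because there is 1 group.

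Spliced length, exon number, genomic span and exon chains came from UCSC models only. Exon overlap, cover by other loci and the position of a locus used all models, assembled ones included. Loci were ordered by start. The nearest locus was the one with the smallest gap, then the closest midpoint. Named loci were the 10 longest silent runs, 5 longest expressed runs, and 5 each by spliced length, exons, span, assembled models and level of neighbours. Those by spliced length, exons, span and level of neighbours were taken only from loci without exon overlap. Runs of loci of 200 bases or more, wholly covered loci, exon chains and the locus with the most UCSC models were chosen after values were seen. Members and lists were chosen with earlier results of these data known. Loci are not independent replicates, and no test was made. Steps were tested on simulated data. Python 3.11.15, numpy 2.4.6, pandas 2.3.3, scipy 1.17.1 and matplotlib 3.10.9 were used. No sequence is shown, because no mm9 genome was used here.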

Additional observations from a re-analysis of the deposited data

Results flagged for a closer look

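At 10 loci that flank the silent loci named above, a single library stood well apart from the remaining 3. Chance flags about 1 in 20 groups in this way. The number of flanking loci examined is not given here, so these flags cannot be weighed against that rate. The locus at chr12 82031233 had 16675 normalised counts in 12RL, with the next library at 19958. At the other 9 loci 1 library held between 1 and 4 reads and the other 3 were at 0. The normalised counts were 1.1937 in 3RL at chr17 27500603, 2.3874 in 3RL at chr9 54013744, and 1.5767 in 12RL at chr6 127781663 and chr11 99339287. They were 1.1388 in 7LR at chr18 67017362 and chr2 85924967, 4.5552 in 7LR at chr10 128395333, and 1.1368 in 8R at chr5 113786314 and chr2 110578853. With 3 values at 0 any read in the remaining library meets the criterion, so the rate of 1 in 20 does not apply to these 9 loci.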

How the results depend on the processing

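The number of silent loci was 8851 with a mean below 1 as the rule and 8338 with 0 in at least 3 libraries. With a mean below 1, the single-exon share was 55.4%, the median length 776 bases, the share with a silent nearest locus 69.9%, in runs of 5 or more 64.4% and in windows 47.3%. With 0 in at least 3 libraries these were 58.0%, 709.5 bases, 70.6%, 66.4% and 49.5%. Leaving out 1 library gave 7550 to 7645 loci, 61.4% to 61.9% with a single exon, median lengths of 598.5 to 615 bases, 4.74% to 4.85% with exon overlap, 71.2% to 71.8% with a silent nearest locus, 67.2% to 67.8% in runs, 48.8% to 50.7% in windows and a longest run of 240 to 241 loci. The length minimum of 200 bases, which removes the short loci by construction, left 4139 silent loci, 35.3% with a single exon, 6.26% with exon overlap, 57.6% with a silent nearest locus, 45.5% in runs, 23.9% in windows and a longest run of 109. Without loci that overlap others, the nearest-locus share was 75.6%, the share in runs 70.2% and in windows 52.8%. Overlap on the same strand was found at 0 silent loci. The share in runs was 75.8% at 3 or more loci, 58.1% at 10 or more and 72.6% with 1 interruption allowed. Windows of 0.5 Mb gave 53.8% and of 2 Mb 41.7%. Without the 900 to 960 base range, the single-exon share of loci of 200 bases or more was 16.6%, an alternative chosen after seeing the data, as was leaving out random pieces and wholly covered loci (7005 loci, 63.8% with a single exon, median 569 bases). For expressed loci, a mean of 1 or more gave 4.25% with a single exon, a median of 2658 bases, 28.7% with overlap, 89.2% with an expressed nearest locus, 85.3% in runs, 67.5% in windows and a longest run of 92. A mean of 50 or more gave 2.85%, 2891 bases, 31.8%, 74.0%, 55.2%, 24.1% and 34. The expressed share in runs thus lay above or below the silent share of 67.9% depending on that minimum. No paired analysis was possible because all hearts form 1 group. Depth limits what silent means to 3 reads per library.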
